A study of Mus musculus with 3 samples.

Results

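The genes described here build the membrane of the red blood cell and the protein skeleton beneath it. They are Slc4a1, Rhd, Rhag, Kel, Epb42, Ank1 and Sptb, 7 of the 13184 genes with signal above background, taken by symbol through the RefSeq accession of each array probe. Together they had 14 probes, and all 7 genes were well above background on all 3 arrays. None lies on the X or the Y chromosome.

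Transcripts were measured in whole mouse embryos of mixed genetic background. One group lacked the small Maf proteins MafF, MafG and MafK at embryonic day E10.5 (MafF-/-:MafG-/-:MafK-/-, called triple null). The others lacked MafF and MafK and kept both copies of MafG (MafF-/-:MafG+/+:MafK-/-, called MafG-intact), collected at E10.5 and at E9.5. Every group therefore lacks MafF and MafK, and no embryo with all small Maf genes was used here. Each group was 1 array hybridised with RNA pooled from 3 embryos, so differences have no replicate error and were not tested, and "higher" and "lower" describe these 3 pools.

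Small Maf proteins have no activation domain of their own and bind DNA as partners of CNC and BACH factors. In the erythroid and megakaryocyte lineages such a partner is the p45 subunit of NF-E2, encoded by Nfe2. A red cell must stretch through capillaries, and it does so with a spectrin net that is pinned to the lipid bilayer. Band 3, the anion exchanger encoded by Slc4a1, holds the net through ankyrin (Ank1) and protein 4.2 (Epb42). The Rh proteins (Rhd, Rhag) sit in the same membrane complex, and Kell (Kel) is a surface metalloprotease and blood group antigen. At these stages the circulating red cells of the mouse are mostly primitive erythroblasts that come from the yolk sac and mature in the blood.

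Values are levels, the log2 intensity of a probe minus the 75th percentile of its array, averaged over the probes of a gene. Levels of 1 gene are compared between arrays, never levels of different genes. Spots of probes printed 10 times gave a median SD of 0.05 to 0.08 (log2) for levels from -4 to 6 and of 0.26 to 0.33 below -6. This spread comes from the array alone and says nothing of variation among embryos. The scanner software's own error estimate was at most 10.7% of the signal for 12 of the 14 probes and 11.6% to 22.0% for the other 2, both of Ank1.

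Promoter sequences are shown because the members moved together, and because GATA factors and the Maf recognition element are the textbook control elements of erythroid genes. RefSeq promoter windows (build GRCm38.p6, 250 bases before to 50 after the gene start) were at hand for 5 of the 7 members: Rhd, Kel, Rhag, Epb42 and Sptb. The letters searched, on both strands, were AGATAA or TGATAA for GATA factors. For the NF-E2 element, its right side TGAGTCA was searched and also its left side TGCTGAG, which overlap by the letters TGAG. For Krüppel-like and Sp factors, CCACACCC was searched and also the GC box CCGCCC. The 250 bases before the start of 4 members follow, in the direction of the gene, with each match in capitals.
Rhd, chr4:134864286-134864535, plus strand: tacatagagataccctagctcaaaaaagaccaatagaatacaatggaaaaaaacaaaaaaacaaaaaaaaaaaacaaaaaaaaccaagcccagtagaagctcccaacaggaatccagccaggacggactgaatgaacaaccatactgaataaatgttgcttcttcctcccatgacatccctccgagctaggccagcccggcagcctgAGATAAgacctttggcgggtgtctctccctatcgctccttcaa
Kel, chr6:41704326-41704575, minus strand: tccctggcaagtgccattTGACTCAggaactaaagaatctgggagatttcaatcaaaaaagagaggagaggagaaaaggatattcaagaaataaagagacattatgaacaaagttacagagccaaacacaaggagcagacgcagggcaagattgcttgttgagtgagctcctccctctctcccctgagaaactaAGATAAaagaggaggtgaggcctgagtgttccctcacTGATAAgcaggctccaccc
Rhag, chr17:40810899-40811148, plus strand: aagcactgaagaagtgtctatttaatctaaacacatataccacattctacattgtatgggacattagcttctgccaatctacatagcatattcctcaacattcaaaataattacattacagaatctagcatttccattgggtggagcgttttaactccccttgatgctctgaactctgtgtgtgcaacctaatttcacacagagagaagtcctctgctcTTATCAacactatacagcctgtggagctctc
Sptb, chr12:76710548-76710797, minus strand: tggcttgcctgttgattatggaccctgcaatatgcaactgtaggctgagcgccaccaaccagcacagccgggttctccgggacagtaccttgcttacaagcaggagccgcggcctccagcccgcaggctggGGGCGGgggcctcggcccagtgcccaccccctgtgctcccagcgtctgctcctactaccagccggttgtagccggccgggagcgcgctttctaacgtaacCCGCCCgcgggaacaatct

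A GATA motif, AGATAA or TGATAA, stood in 4 of the 5 windows. Rhd held it at position -43 from the start, Kel at -56 and again at -19, Rhag at -31 (on the opposite strand) and Epb42 at -226 (opposite strand). Of all 32851 windows of the same length, 18.6% held at least 1 of these 2 motifs, 11.2% AGATAA and 9.05% TGATAA. The letters TGAGTCA occurred in the Kel window alone among the 5, at -232 on the opposite strand, and in 5.20% of all windows. TGCTGAG and CCACACCC were in none of the 5, against 7.84% and 3.56% of all windows. The Sptb window had no GATA motif and 2 copies of CCGCCC, at -119 and -19, a motif in 35.7% of all windows. A match is a description of letters and shows no binding.

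Mafg itself was read first as a check of the labels. It was not well above background in the triple null pool, where its bound was at least 173-fold lower against the MafG-intact E10.5 pool and at least 253-fold lower against the E9.5 pool. The erythroid identity of part of the RNA was clear on each array: all 9 measured of 10 erythroid markers (Hba-a1, Hba-x, Hbb-y, Hbb-bh1, Hbb-bt, Alas2, Klf1, Gata1 and Epor) were above background on all 3. Xist was above background in the MafG-intact E10.5 pool and in neither other pool, and 4 Y-linked genes showed the reverse. Any difference from the MafG-intact E10.5 pool therefore also compares pools of different sex.

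By their labels the triple null and MafG-intact pools of E10.5 differ in genotype by MafG alone, on a background without MafF and MafK. The pools also differ in sex and each is a single array, so an effect of MafG loss cannot be told apart from these. A difference in how far the embryos of the pools had developed cannot be told apart either, and was not tested. In the triple null pool each of the 7 genes was lower, and 5 of them by at least 2-fold: Rhd, Kel, Slc4a1, Epb42 and Rhag. Beside these 5 of 7, the share at least 2-fold lower among all 12529 genes detected on both arrays was 4.47%, and the share at least 2-fold apart in either direction 5.45%. The median log2 difference of the 7 was -1.34, or 2.54-fold lower, against 0.06 for all genes. With another background correction (normexp) the count was 3, as Epb42 (-0.95) and Rhag (-0.86) no longer passed 2-fold. In a sample of whole embryos, fewer red cells and less of each transcript per red cell cannot be told apart.

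Rhd, the Rh blood group protein, had a level of -2.27 in the triple null pool, 0.53 in the MafG-intact E10.5 pool and -1.64 in the E9.5 pool. The log2 difference between the E10.5 pools was -2.80, a 6.96-fold lower signal in the triple null pool. Only 0.231% of all genes had a more negative difference in this pair. Rhag, the Rh-associated glycoprotein that carries Rhd to the surface and conducts ammonia, had levels of -3.40 in the triple null pool, -2.16 in the MafG-intact E10.5 pool and -3.24 in the E9.5 pool. Its E10.5 difference was -1.24 (2.37-fold lower in the triple null pool). The partners thus lay on the same side of 0, with Rhd farther from it.

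Kel had a level of -1.96 in the triple null pool, -0.04 in the MafG-intact E10.5 pool and -1.02 in the E9.5 pool. Between the E10.5 pools its log2 difference was -1.92, a 3.78-fold lower signal without MafG. Slc4a1, the band 3 exchanger of chloride and bicarbonate, had 1.20 in the triple null pool, 3.01 in the MafG-intact E10.5 pool and 2.01 in the E9.5 pool. Its E10.5 difference was -1.80, or 3.49-fold lower in the triple null pool, with 1.30% of genes more negative. For both genes the triple null pool was the lowest of the 3 and the MafG-intact E10.5 pool the highest. Rhd, Rhag, Kel and Slc4a1 were each read by a single probe.

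**Figure D1:**
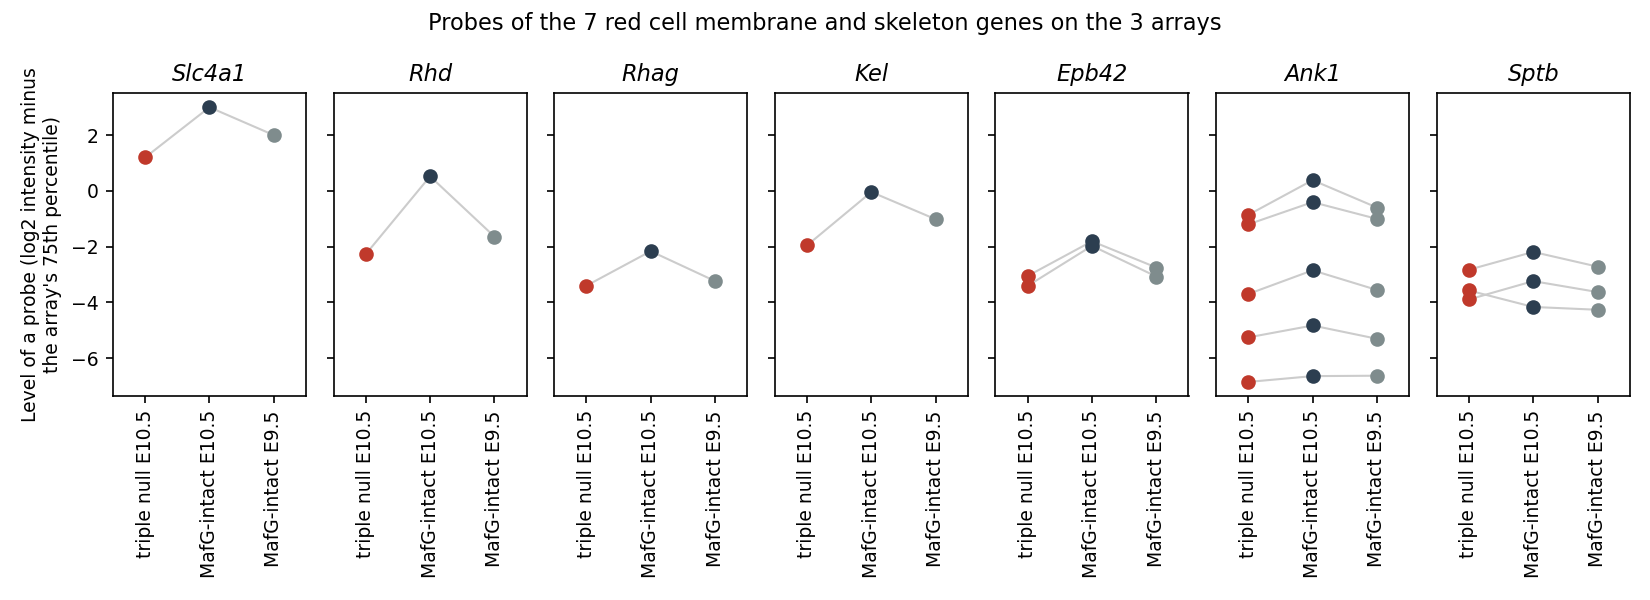
Level of each probe (log2 intensity minus the 75th percentile of its array, vertical axis) of the 7 genes in the triple null pool and in the MafG-intact pools of E10.5 and E9.5. Points joined by a line belong to 1 probe, and there are no error bars because each group is 1 array. The MafG-intact E10.5 pool is the highest of the 3 for 12 of the 14 probes, the exceptions being 1 probe of Sptb and the dimmest probe of Ank1.

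The other 3 genes belong to the spectrin net and its anchors. Epb42, protein 4.2, a relative of transglutaminases that has lost the enzyme's activity, had levels of -3.23 in the triple null pool, -1.89 in the MafG-intact E10.5 pool and -2.91 in the E9.5 pool. Its 2 probes gave E10.5 differences of -1.44 and -1.25, a mean of -1.34 (2.54-fold lower in the triple null pool). Ank1, erythroid ankyrin, which also has forms in muscle and brain, had -3.58 in the triple null pool, -2.87 in the MafG-intact E10.5 pool and -3.42 in the E9.5 pool. The mean difference of its 5 probes at E10.5 was -0.71, a 1.63-fold lower signal in the triple null pool. Its probes spread from -1.25 for the brightest to -0.21 for the dimmest, which stood at -6.86 in the triple null pool, and all 5 were below 0. By its brightest probe alone Ank1 would pass 2-fold.

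Sptb, beta spectrin, differed least. Its mean level was -3.43 in the triple null pool, -3.20 in the MafG-intact E10.5 pool and -3.54 in the E9.5 pool, an E10.5 difference of -0.24 (1.18-fold lower in the triple null pool). The 3 probes did not agree. A pair of them gave -0.64 and -0.66, and the other gave 0.59, with levels of -3.57 in the triple null pool, -4.17 in the MafG-intact E10.5 pool and -4.27 in the E9.5 pool. The mean over probes therefore stands for none of the 3. Over the genes by role, the median E10.5 difference was -1.86 for the surface proteins (Slc4a1, Rhd, Rhag, Kel) and -0.71 for the skeleton and its anchors (Epb42, Ank1, Sptb). The second median is the Ank1 mean, dim probes included, and depends on that averaging. By the brightest probe Ank1 and Epb42 were each at -1.25 and Sptb at -0.64, beside -1.24 for the surface gene Rhag. Differences of all 7 genes were larger than the software's error estimate of the difference, which ran from 0.12 to 0.21 (log2) and leaves out variation between embryos. For a gene with several probes this estimate takes probe errors as independent, which makes it smaller. It also leaves out disagreement between probes, as for Sptb, whose probes ran from -0.66 to 0.59.

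**Figure D2:**
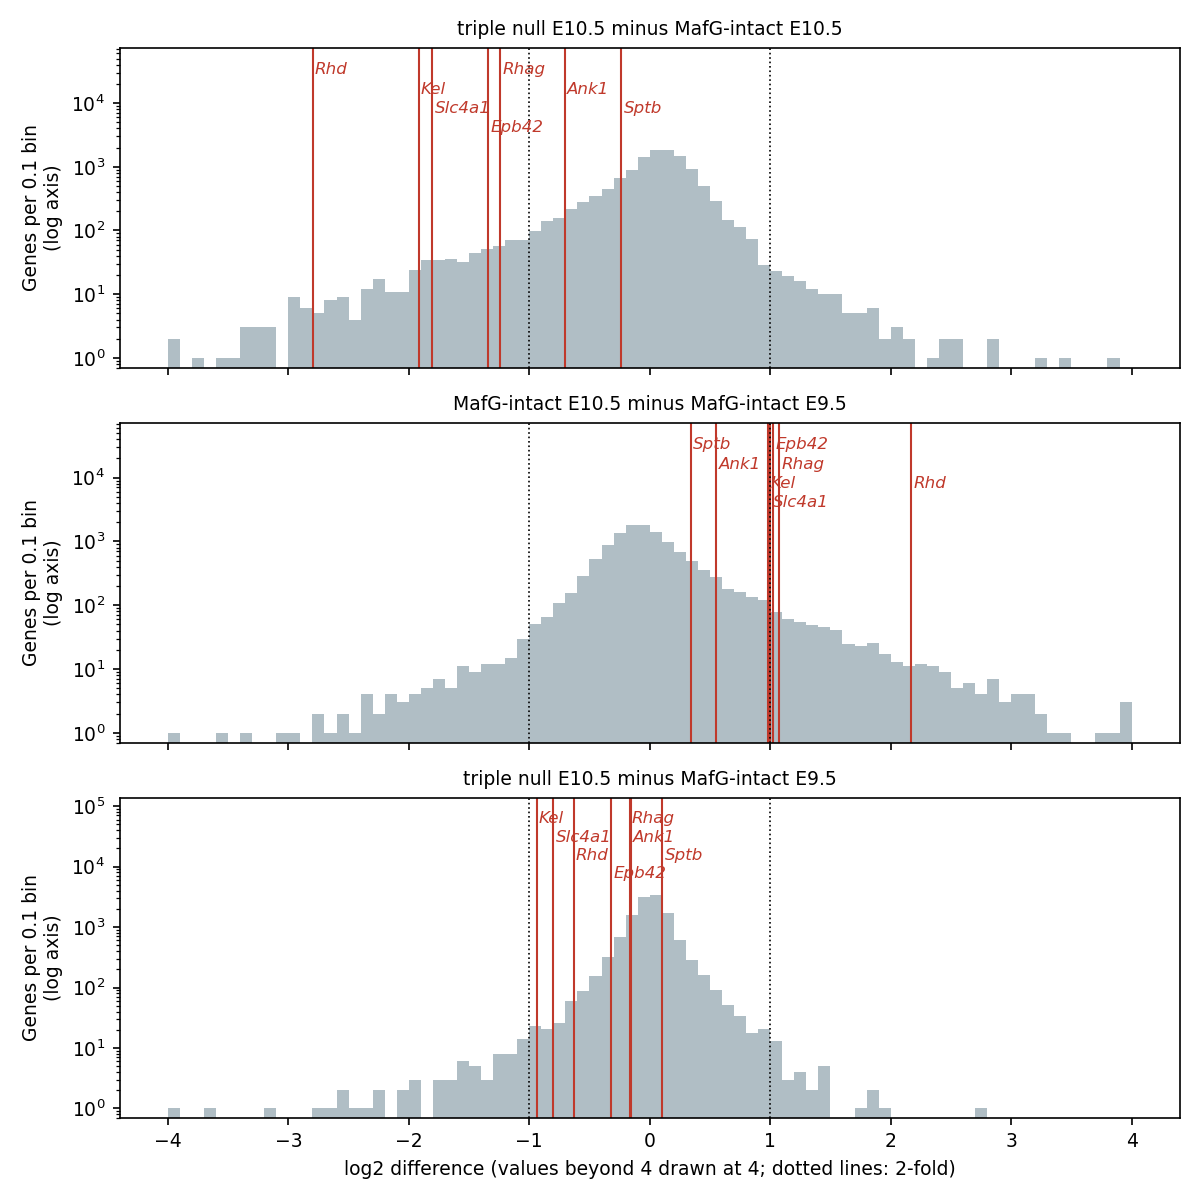
Histograms of the log2 difference of all genes above background on both arrays of each pair (grey, number of genes per bin on a log axis), with a red line for each of the 7 genes and dotted lines at 2-fold. In the top panel all 7 lines lie left of 0, from -2.80 for Rhd to -0.24 for Sptb, in the middle panel all lie right of 0, and in the bottom panel 6 lie left of 0.

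MafG-intact embryos of E10.5 and E9.5 share a genotype and differ by a day of age, the second comparison, and these pools too differ in sex. All 7 genes were higher at E10.5. At least 2-fold higher were 4 of 7 (Rhd, Rhag, Epb42 and Slc4a1), against 4.12% of 12514 genes (5.19% apart in either direction). Rhd stood apart with a log2 difference of 2.17 (4.49-fold higher), which 99.4% of genes did not reach. Rhag was at 1.07, Epb42 at 1.02, Slc4a1 at 1.00 and Kel at 0.98. These 4 lay close to the 2-fold line, Slc4a1 just above it at 2.003-fold and Kel just below it at 1.97-fold, so the count of 4 turns on very small differences: it was 3 or fewer under 6 of the 8 alternatives that kept the 2-fold threshold, and 1, Rhd, with normexp. Ank1 was at 0.55 and Sptb at 0.34, and the median of the 7 was 1.00, against -0.05 for all genes. This comparison and the first share the MafG-intact E10.5 array, so their opposite signs are not independent.

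The third comparison sets triple null embryos against MafG-intact ones collected a day earlier, in pools alike in Xist and Y-linked signal. None of the 7 genes was at least 2-fold lower or higher, against 0.783% of 12521 genes at least 2-fold apart. Kel (-0.94, 1.92-fold lower), Slc4a1 (-0.80, 1.74-fold lower) and Rhd (-0.63, 1.55-fold lower) were the lowest in the triple null pool, with only 0.599%, 0.863% and 1.30% of genes more negative. Epb42 lay at -0.32, Rhag at -0.17, Ank1 at -0.16 and Sptb at 0.10. The difference was larger than the software's error estimate for 5 genes and not for Rhag and Sptb. The Ank1 mean (-0.16) passed the estimate averaged over its probes (0.12). Its brightest probe (-0.27) also passed its own estimate (0.20). The other Ank1 probes did not pass theirs, the second brightest lying at -0.197 against 0.204. The median of the 7 was -0.32, against 0.01 for all genes. Sptb would be on the lower side (-0.11) by its brightest probe, the same probe that gave -0.64 in the first comparison.

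A list of other red cell membrane genes held 28, of which 26 had probes and 25 were above background on both arrays. Its median lay nearer 0 than that of the members, with a wide spread. In whole embryos the part of each signal that comes from red cells is not known, so this median may also read other tissues. In the first comparison 5 of 25 were lower in the triple null pool by 2-fold or more, 0 were higher by as much, and the list median was -0.19. The 5 were Icam4, the LW blood group adhesion protein (-1.76), Slc14a1, the Kidd urea transporter (-1.59), Add2, beta adducin (-1.56), Ermap, the Scianna antigen (-1.22), and Kcnn4, the Gardos potassium channel (2.005-fold lower). At the other end of the list were Tmod1, which caps actin filaments (0.70), and the glucose transporter gene Slc2a1 (0.63). All 7 members lay below the median of this list, Sptb only narrowly (-0.24) and with probes that disagreed. Members and lists were chosen with earlier results of these data known, so such positions are a description and no test. In the other comparisons the list median was 0.14 for MafG-intact E10.5 against E9.5, with 3 of 25 at least 2-fold higher at E10.5, and -0.03 for triple null against E9.5, with 0 of 25 at least 2-fold apart.

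Relatives of the members that serve other tissues, such as Slc4a2, Sptbn1, Ank2 and Ank3, were read for contrast. Of 25, 23 had probes and 21 were above background on both E10.5 arrays. The median first-comparison difference was -0.25, and 1 of 21 passed 2-fold on the lower side in the triple null pool, the kidney-type ammonia transporter gene Rhcg (-1.78, from 1 probe at a level of -5.27 in that pool). Slc4a10, a neuronal bicarbonate transporter gene, was above background in the MafG-intact E10.5 pool alone with a bound of at least 2.83-fold lower for the triple null pool. Values for the direct counterparts were 0.02 for Slc4a2, 0.10 for Sptbn1, -0.64 for Ank2, -0.14 for Ank3 and -0.73 for Rhbg. GATA motifs as above stood in 2 of 36 promoter windows of the relatives (5.56%) and in 8 of 36 of the other red cell genes (22.2%).

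Some erythroid genes outside the membrane were lower in the same pair of pools and others were near 0, and their part in the result was not tested. Of 13 erythroid regulators, 3 passed 2-fold on the lower side in the triple null pool, set against MafG-intact E10.5: Bcl11a (-3.48), which neurons also express, Gfi1b (-1.76) and Klf1 (-1.64), the erythroid Krüppel-like factor. The list median was -0.62, with Nfe2 at -0.62, Gata1 at -0.96 and the erythropoietin receptor gene Epor at -0.70. The regulators nearest 0 or above it were Lmo2 (0.20), Sox6 (0.04), Ldb1 (0.01), Bach1 (-0.02), Myb (-0.04) and Zfpm1 (-0.06). Myb was dim, with levels from 1 probe of -6.38 in the triple null pool and -6.34 in the MafG-intact E10.5 pool. At such levels repeat spots spread widely, so its small difference says little. For haem synthesis the median was -0.32, and 1 of 8 genes passed 2-fold: Alas2 (-1.28), which encodes the rate-limiting enzyme of erythroid cells. Uros, another enzyme gene of that pathway, was at 0.09. Among globins, 6 of 7 were at least 2-fold lower (median -1.63). Farthest from 0 lay Hbb-bt, an adult beta globin gene, at -4.79, or 27.6-fold lower, with its 4 probes between -4.85 and -4.72. The theta globin genes Hbq1a (-1.99) and Hbq1b (-1.81), the alpha globin gene Hba-a1 (-1.63) and the embryonic genes Hba-x (-1.06) and Hbb-y (-1.04) followed. The embryonic gene Hbb-bh1 was at -0.14, and near-identical globin transcripts may share probes. Of the members, 3 lay below the globin median and 6 below the medians of the regulators and of haem synthesis.

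Against E9.5 the triple null pool had medians of -0.62 for globins, -0.20 for regulators and -0.04 for haem synthesis, beside -0.32 for the members. The globins at least 2-fold lower were Hbq1b (-2.74), Hbb-bt (-1.92) and Hbq1a (-1.01). The Hbb-bt probes agreed less here than in the first comparison, from -2.38 to -0.86. Hbq1a only just passed, at 2.02-fold lower and a level of -5.43 in the triple null pool. Klf1 (-0.82) and Gfi1b (-0.78) lay near Kel, Slc4a1 and Rhd. Alas2 was at -0.12 and Hbb-y at -0.14, near Rhag and Ank1.

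**Figure D3:**
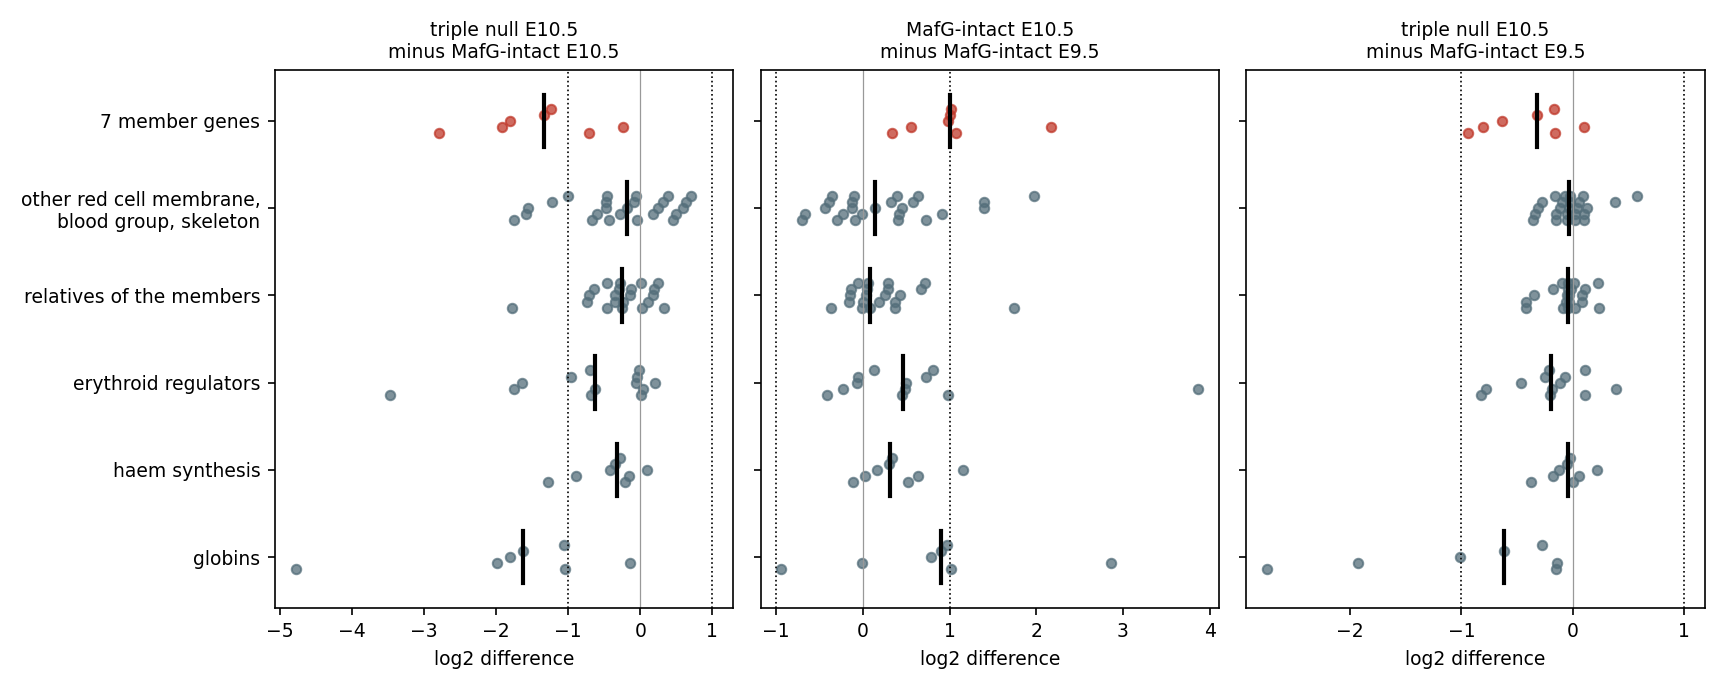
Log2 differences in the 3 comparisons for the 7 genes (red) and for 5 other lists (grey-blue), 1 point per gene above background on both arrays; black bars are list medians and dotted lines mark 2-fold. In the left panel the member median is -1.34 and the globin median -1.63, against medians from -0.62 to -0.19 for the other 4 lists.

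The summed linear signal of the members, each scaled to the 75th percentile of its array, was 3.14 in the triple null pool, 11.2 in the MafG-intact E10.5 pool and 5.25 in the E9.5 pool, with Slc4a1 the main part of it. The sum over 9 erythroid markers was 345 in the triple null pool, 605 in the MafG-intact E10.5 pool and 408 in the E9.5 pool. Other cell types moved in the same pairs. Platelet markers (9 of 9 measured) summed to 2.16 in the triple null pool, 6.71 in the MafG-intact E10.5 pool and 2.97 in the E9.5 pool, with Ppbp not above background in the triple null pool. Macrophage markers (4 of 6) summed to 0.366 in the triple null pool, 1.62 in the MafG-intact E10.5 pool and 0.379 in the E9.5 pool. Neuronal markers (6 of 6) summed to 7.85 in the triple null pool, 33.0 in the MafG-intact E10.5 pool and 8.02 in the E9.5 pool. Endothelial markers (6 of 6) were near level, at 4.65 in the triple null pool, 4.10 in the MafG-intact E10.5 pool and 4.57 in the E9.5 pool. Yolk sac endoderm markers (5 of 6) summed to 4.05 in the triple null pool, 4.45 in the MafG-intact E10.5 pool and 8.36 in the E9.5 pool. A sum weighs its brightest genes most, such as globins among the erythroid markers and Rbp4 among those of yolk sac. In the first comparison the yolk sac markers did not agree: Ttr -1.28, Spp2 -0.84, Rbp4 -0.18, Rhox5 0.05 and Amn 0.54.

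By distance over the 3 differences, the genes most like the median of the members, among 12347 genes in none of the lists, were Unc93b1, Mterf3, Heyl, Dusp26, Asb17, Hp, Crispld2, Ano2, Il10ra and Acss1. Their distances ran from 0.016 to 0.090 (log2). Unc93b1, the nearest, had levels of -3.11 in the triple null pool, -1.79 in the MafG-intact E10.5 pool and -2.79 in the E9.5 pool. The likeness rests on 3 arrays.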

How the data were processed

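Embryo RNA was amplified with a Cy3 label for 1-colour Agilent arrays, per the labels' protocols. The file headers give 1 slide and 1 scan time for all 3 arrays. The authors deposited scanner output of Agilent Feature Extraction 9.5.3.1 (protocol GE1-v5_95_Feb07, design 014868, annotated on mm7), per the file headers. Its background-subtracted intensity is linear and not scaled between arrays. Its marks for background, saturation and outliers (the other columns deposited) are 0 or 1. The deposited value table holds the same intensity, rounded (largest difference 0.497%).

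The log2 intensity of 43379 non-control spots was taken minus the array's 75th percentile (1078 in the triple null pool, 1420 in the MafG-intact pool of E10.5 and 1064 in that of E9.5). Outlier spots were dropped, repeat spots averaged, and probes above background on at least 1 array averaged per gene. Probes above background made up 69.1% to 70.4% of each array. Of 41170 probes, 22950 had 1 symbol through an unversioned RefSeq accession (table of GRCm38.p6); 18220 did not and were left out. A call needed signal above background on both arrays and a 2-fold difference. Where only 1 of the 2 arrays had such signal, a bound is given, against the higher of its own dim signal and the lowest signal well above background there. With 1 array per group there is no test; the number of arrays limits the precision.

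Members, lists and motifs were chosen with earlier results of these data known. From the lists, 2 genes are not reported here and were left out of every list count, sum and median. Named genes were the members, list genes at least 2-fold apart in the first comparison, and the 10 nearest genes; a few others were named after their values were seen. Alternatives were normexp (offset 50, on the median spot intensity, since the files hold no mean spot intensity), quantile scaling, scaling on detected genes or on 9 spike-in probes, other probe filters, the brightest probe, 3-fold and 1.5-fold thresholds, the value table, and leaving out X and Y genes. Tools were Python 3.11.15, pandas 2.3.3, numpy 2.4.6, matplotlib 3.10.9, R 4.3.3 and limma 3.58.1.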

Additional observations from a re-analysis of the deposited data

How the results depend on the processing

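Of 168 values of the members' differences under 8 alternatives each, 145 moved by no more than the repeat-spot SD, 22 moved by more and 1 turned: Sptb, triple null against E9.5, was -0.11 by its brightest probe, against 0.10. The other differences kept their sign. Part of the 145 could not move. Every member probe was above background on all arrays, so the other probe filters returned the same values. The brightest probe changes nothing for Rhd, Rhag, Kel and Slc4a1, which have a single probe each. The value table holds the same intensity, rounded. The tally is therefore no measure of robustness. With normexp the member median was -0.95 (triple null against MafG-intact E10.5), 0.74 (MafG-intact E10.5 against E9.5) and -0.21 (triple null against E9.5), and in the first of these it was -1.25 with the brightest probe. The count of members at least 2-fold apart was 3 with normexp and 6 by the brightest probe in the first comparison (5 as reported). In the second (4 as reported) it was 1 with normexp, 2 with spike-in scaling, and 3 with quantile scaling, scaling on detected genes, the brightest probe or the value table. With a 3-fold threshold it was 3 and 1, and with a 1.5-fold threshold 3 for triple null against E9.5. Rhag under normexp was -0.86 and Epb42 -0.95 in the first comparison. Over all genes, the 3 comparisons in that order gave 267, 255 and 27 genes with normexp, 1242, 1227 and 517 with no filter on dim probes, 273, 242 and 28 at 3-fold and 1734, 1701 and 379 at 1.5-fold, against 683, 650 and 98. The median of all genes ran up to 0.11 (normexp) in the first comparison. The causes were not tested. No paired analysis was possible because each group is 1 array. Dim probes limit what can be read: the dimmest Ank1 probe lay near the lowest level above background.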
